A study of Mus musculus with 8 samples.

Results

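The NRF2 antioxidant response genes are 10 genes described here across liver from mice fed a STD diet or an atherogenic diet: Nfe2l2, Hmox1, Nqo1, Cbr3, Akr1b8, Gclc, Gclm, Gsr, Txnrd1 and Srxn1. They were chosen by name, as every non-control probe that the array files assign to them, which gave 17 of 41174 probes and 10 of 19505 named genes. Liver RNA came from 8 male C57BL/6 mice, 14 to 17 weeks old at the start, with 1 mouse per Agilent 1-color array. The STD group of 4 mice received standard chow for 4 weeks, and the ATH group of 4 mice received the atherogenic diet for the same time. The atherogenic diet is a high-fat, high-cholesterol feed with added cholic acid, used as a model of fatty liver disease with inflammation. All RNA was from homogenized liver, so in these bulk samples fewer cells of a type and less RNA per cell cannot be told apart.

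NRF2, the protein encoded by Nfe2l2, is a transcription factor that KEAP1 holds in the cytoplasm and marks for degradation. When oxidants or electrophiles modify KEAP1, NRF2 accumulates, pairs with a small MAF protein in the nucleus and binds antioxidant response elements near its target genes. In liver its targets supply glutathione, reduce quinones and carbonyls, recycle thioredoxin and peroxiredoxin, and break down heme, and BACH1 competes with it for some of the same elements.

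Promoter windows from RefSeq on GRCm38.p6, running from 250 bases before to 50 bases after a gene's start, were found for 7 of the 10 genes and not for Hmox1, Gclc or Gsr. Both strands were searched for TGACNNNGC, the core of the antioxidant response element, and for TGANTCAGC, an NF-E2 type element, and the run TGACTCAGC satisfies both. TGACNNNGC was present in the windows of 4 of the 7 genes and TGANTCAGC in 1 of them. Over all 32851 windows of the table, 12.4% held the first motif and 1.19% the second, and by gene it was 14% and 1.37%. The matches upstream of the start site are shown because they are the letters through which this family is usually defined. Each is given 5′ to 3′ on the gene's strand with the match in capitals, which for Gclm and Txnrd1 is the reverse complement of the motif.
Nfe2l2, chr2:75704884-75704913, minus strand, match from position -240: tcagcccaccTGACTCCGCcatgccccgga
Gclm, chr3:122245413-122245442, plus strand, match from position -134: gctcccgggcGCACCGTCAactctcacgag
Txnrd1, chr10:82859104-82859133, plus strand, match from position -92: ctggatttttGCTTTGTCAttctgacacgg
Srxn1, chr2:152105469-152105498, plus strand, match from position -45: aaattcacccTGAGTCAGCggccgggcgcg
Srxn1 held the NF-E2 type match printed above and a TGACNNNGC match after its start site. Txnrd1 has several start sites in the table, and 1 of its windows held a match. Neither motif was found in the windows of Nqo1, Cbr3 or Akr1b8. The 250 bases before the start of Cbr3, the 1 gene of the 10 that passed the test below, were on the plus strand at chr16:93682969-93683218 and carry no capitals.
Cbr3: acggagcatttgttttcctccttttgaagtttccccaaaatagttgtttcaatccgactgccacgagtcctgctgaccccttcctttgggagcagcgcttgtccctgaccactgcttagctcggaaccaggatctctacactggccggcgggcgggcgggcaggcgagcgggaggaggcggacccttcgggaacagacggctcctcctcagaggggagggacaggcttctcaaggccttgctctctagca

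Levels below are scaled log2 signals, that is, the log2 processed signal of a probe minus the 75th percentile of its array, and each difference is ATH minus STD. A probe entered the test when it was detected on at least 3 of the 4 arrays of a diet, and a gene was called at a Benjamini-Hochberg adjusted p under 0.05 over all 31056 such probes in limma. All 17 probes passed this filter, were detected on all 8 arrays and were not saturated. A gene was represented by its brightest probe. On STD arrays 72.35% to 77.27% of spots were well above background and on ATH arrays 72.87% to 77.76%, so detection was similar between diets. The 4 STD arrays shared 1 slide and the 4 ATH arrays the other, and slide and diet cannot be told apart. ATH replicate 2 correlated least with its own diet (mean r of 0.978 against 0.980 to 0.983 for the other ATH arrays and 0.987 to 0.989 for STD arrays), and values without it are given for the genes and lists whose call it decided.

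Of the 10 genes, Cbr3 rose on the atherogenic diet, no gene fell, and 9 did not pass the test. Across the 16558 genes tested, 4.05% were called higher and 5.3% lower, 9.35% in all, so 1 of 10 was near the background. The difference was above 0 for 5 genes (Cbr3, Hmox1, Akr1b8, Nfe2l2 and Srxn1) and below 0 for 5 (Nqo1, Gclc, Gclm, Gsr and Txnrd1). Their median difference was 0.17, against -0.14 over all genes tested. The signs of the lower genes depended on the scaling, since all 10 differences were above 0 when arrays were left unscaled or were scaled by spike-in probes. At the stricter adjusted p under 0.01, none of the 10 was called by limma, where 0.64% of all genes were. At an unadjusted p under 0.05 in limma, 4 of the 10 were higher and 0 lower, against 11.1% and 19.5% of all genes tested, and the methods' test with unequal variances called 0 after adjustment. The ranges of the diets did not overlap for 3 of the 10 genes, Cbr3, Akr1b8 and Srxn1, against 22.2% of all genes.

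**Figure D1:**
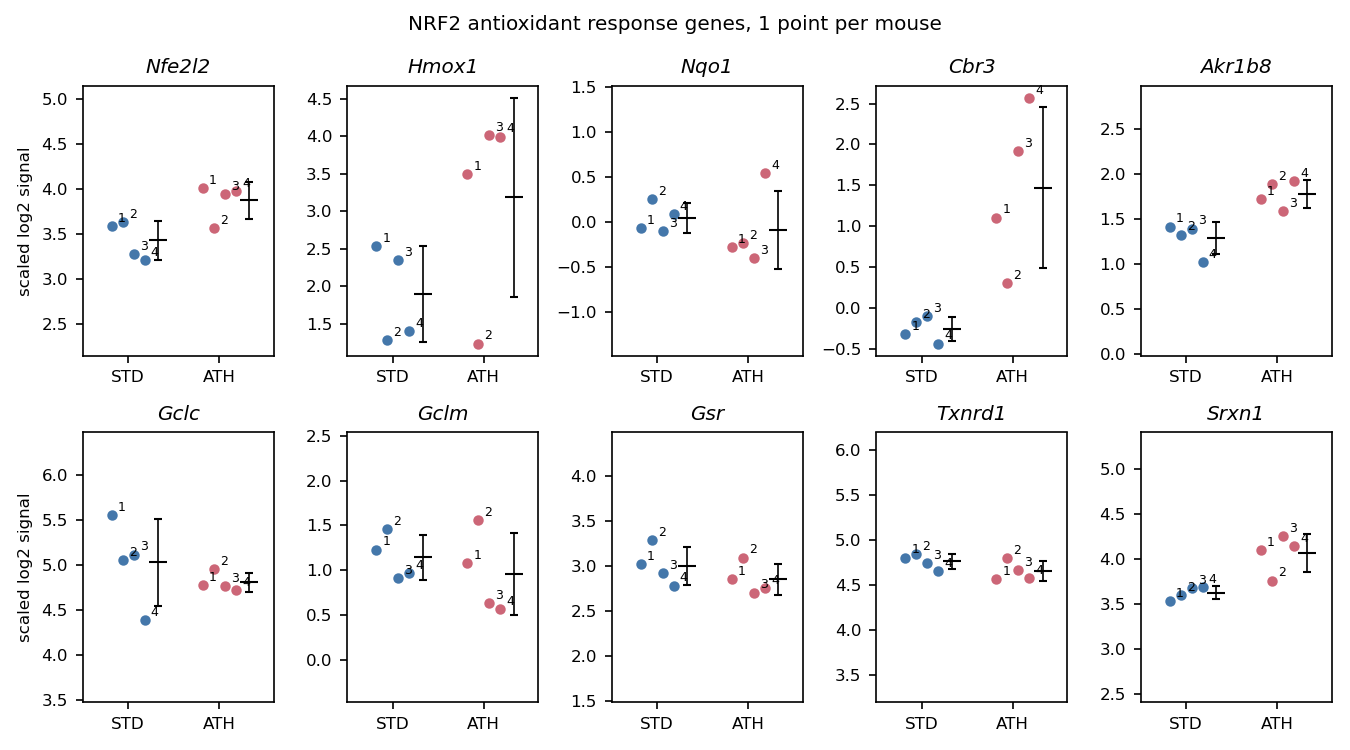
Scaled log2 signal of each of the 10 genes in the 4 STD (blue) and 4 ATH (red) mice, numbered by replicate, with the mean and SD of each diet as a bar at the right of its points. All panels span at least 3 log2 units, and the ATH points lie wholly above the STD points for Cbr3, Akr1b8 and Srxn1.

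Nfe2l2 encodes NRF2 itself and has 4 probes, 2 on its RefSeq transcript and 2 on cDNA clones assigned to the gene. At the brightest probe (chromosome 2, 75519430 to 75519489 on mm7, the build of the array design), the level was 3.59, 3.63, 3.28 and 3.20 in the STD mice and 4.01, 3.56, 3.94 and 3.97 in the ATH mice. ATH replicates 1, 3 and 4 lay above every STD mouse, and ATH replicate 2 fell within the STD range. The STD mean was 3.42 ± 0.22 (SD, n = 4) and the ATH mean 3.87 ± 0.21 (SD, n = 4), a difference of 0.45 (SE 0.16) that did not pass the test (limma, adjusted p = 0.108). The other probe of the RefSeq transcript gave 0.41 (limma, adjusted p = 0.115). The clone probes gave 0.38 with an SE of 0.34 and -0.04 with an SE of 0.26, so 3 of the 4 probes had a mean higher on the atherogenic diet and none was called.

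Hmox1 encodes the inducible heme oxygenase, which degrades heme to biliverdin, iron and carbon monoxide. Its level at 1 probe (chromosome 8, 73642229 to 73642288 on mm7) was 2.53, 1.28, 2.35 and 1.41 in the STD mice and 3.49, 1.24, 4.01 and 3.99 in the ATH mice. ATH replicate 2 had the lowest value of all 8 mice, and the other 3 ATH mice lay above every STD mouse. The mean was 1.89 ± 0.64 (SD, n = 4) against 3.18 ± 1.32 (SD, n = 4), which is 2.45-fold on the linear scale. The difference of 1.29 (SE 0.61, 95% interval -0.09 to 2.67) did not pass the test with all arrays (limma, adjusted p = 0.200). Without ATH replicate 2 it was 1.94 (SE 0.34), or 3.83-fold, and passed (limma, adjusted p = 0.0116), where 14.8% of all genes passed.

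Cbr3, Akr1b8 and Nqo1 encode reductases of quinones and carbonyls, and the diets separated for Cbr3 and Akr1b8 but overlapped for Nqo1. Cbr3, a carbonyl reductase, had a level at its probe (chromosome 16, 93751054 to 93751113 on mm7) of -0.32, -0.17, -0.10 and -0.44 in the STD mice and 1.10, 0.30, 1.92 and 2.56 in the ATH mice. The STD mice were close together, and all 4 ATH mice lay above them over a wide range. The mean was -0.26 ± 0.15 (SD, n = 4) against 1.47 ± 0.98 (SD, n = 4), a 3.32-fold rise. The difference was 1.73 (SE 0.42, 95% interval 0.78 to 2.68; limma, adjusted p = 0.043). The call was lost in limma when the replicate number was a block (adjusted p = 0.0642), after quantile normalization (0.0535) and without the filter (0.0694), and with the methods' test with unequal variances (0.197). The call was also lost when any 1 array other than ATH replicate 2 was left out (limma, adjusted p up to 0.104), and without ATH replicate 2 the rise was 4.35-fold (limma, adjusted p = 0.00662). The related constitutive carbonyl reductase Cbr1 had a difference of -0.34 (limma, adjusted p = 0.179), and a test of Cbr3 against Cbr1 was not made.

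Akr1b8, an aldo-keto reductase of reactive aldehydes, had levels of 1.42, 1.33, 1.39 and 1.02 in the STD mice and 1.72, 1.89, 1.59 and 1.92 in the ATH mice. The ATH mice all lay above the STD mice, with ATH replicate 2 among the higher ones. The difference was 0.49 (SE 0.14), or 1.40-fold, and did not pass the test (limma, adjusted p = 0.0636). It passed under median scaling, quantile normalization, spike-in scaling, no scaling and normexp background correction (limma, adjusted p from 0.0106 to 0.0484). Akr1b8 has close relatives in the mouse genome, and whether the probe reads them was not tested.

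Nqo1 encodes the quinone reductase that is often used as a readout of NRF2 activity. Its level was -0.07, 0.26, -0.10 and 0.09 in the STD mice and -0.27, -0.23, -0.40 and 0.55 in the ATH mice. The groups overlapped, with ATH replicate 4 above every STD mouse and the other 3 ATH mice below them all. The difference was -0.13 (SE 0.22, 95% interval -0.62 to 0.35; limma, adjusted p = 0.714), and its sign turned positive with spike-in scaling or no scaling.

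Gclc, Gclm and Gsr serve glutathione: Gclc and Gclm are the catalytic and modifier subunits of glutamate-cysteine ligase, the rate-limiting enzyme of glutathione synthesis, and Gsr is the reductase that regenerates glutathione from its oxidized form. None of the 3 passed the test, and the diets overlapped for each. Gclc was 5.56, 5.05, 5.11 and 4.39 in the STD mice and 4.78, 4.96, 4.77 and 4.72 in the ATH mice. The STD mice spanned a wider range than the ATH mice, which all fell inside it. The difference was -0.22 (95% interval -0.73 to 0.29; limma, adjusted p = 0.544).

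Gclm was 1.23, 1.46, 0.92 and 0.97 in the STD mice and 1.09, 1.56, 0.64 and 0.58 in the ATH mice, with the highest value in ATH replicate 2. Its difference was -0.18 (95% interval -0.71 to 0.355; limma, adjusted p = 0.645), and without ATH replicate 2 it was -0.38 (limma, adjusted p = 0.212). Gsr was 3.02, 3.29, 2.92 and 2.78 against 2.85, 3.09, 2.70 and 2.76 at its brightest probe, a difference of -0.15 (95% interval -0.49 to 0.19; limma, adjusted p = 0.536). The other Gsr probes gave -0.15 and -0.03, so its 3 probes lay close to each other. The differences of Gclc, Gclm and Gsr were all above 0 with spike-in scaling or no scaling, and each interval leaves room for a change in either direction.

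Txnrd1, the cytosolic thioredoxin reductase, and Srxn1, the sulfiredoxin that restores hyperoxidized peroxiredoxins, differed in direction under the main scaling. Txnrd1 was 4.81, 4.85, 4.75 and 4.66 in the STD mice and 4.57, 4.80, 4.67 and 4.58 in the ATH mice. The spread was small in both diets and the ranges overlapped, with a difference of -0.11 (SE 0.12, 95% interval -0.37 to 0.15; limma, adjusted p = 0.556). It was above 0 unscaled, with spike-in scaling and after quantile normalization.

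Srxn1, the gene with the NF-E2 type match printed above, was 3.53, 3.60, 3.68 and 3.69 in the STD mice and 4.10, 3.76, 4.25 and 4.15 in the ATH mice at its brightest probe. All 4 ATH mice lay above the STD mice, with ATH replicate 2 nearest to them. The difference was 0.44 (SE 0.14), or 1.36-fold, and did not pass the test with all arrays (limma, adjusted p = 0.0775). Without ATH replicate 2 it was 0.54 and passed (limma, adjusted p = 0.0259). The dimmer Srxn1 probes gave 0.30 and 0.27 with overlapping diets and were not called.

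**Figure D2:**
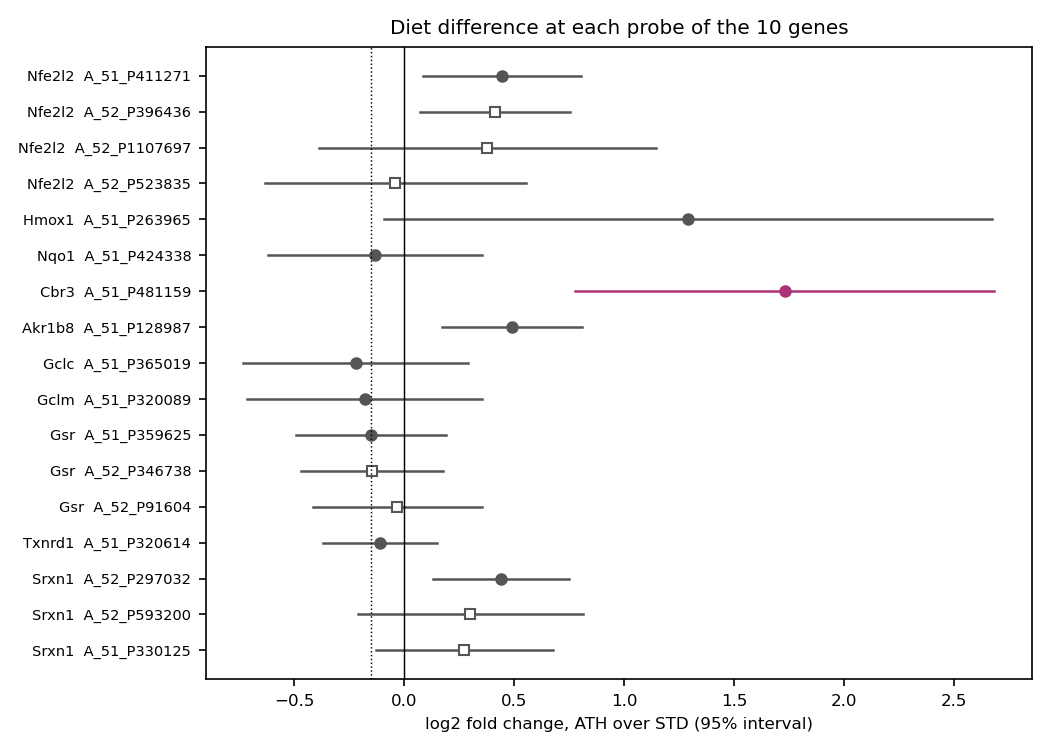
Log2 fold change of ATH over STD with its 95% interval from limma for all 17 probes of the 10 genes. Filled circles are the brightest probe of a gene, open squares its other probes, red marks the probe called at an adjusted p under 0.05, the solid line is 0 and the dotted line the median of all probes at -0.15.

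By probe, 1 of the 17 was called, against 8% of all probes. The 5 genes with a mean higher on the atherogenic diet kept that sign under each of the 20 alternative settings, with ranges of 1.37 to 2.18 for Cbr3, 1.01 to 1.94 for Hmox1, 0.40 to 0.94 for Akr1b8, 0.30 to 0.89 for Nfe2l2 and 0.34 to 0.89 for Srxn1. The scaling moved the whole array: the 75th percentile was higher by 0.45 on ATH arrays and the median of 10 spike-in probes by 0.14. The median of all probes was -0.15 under the main scaling, -0.05 when quantiles were matched, 0.16 on the spike-in scale and 0.30 unscaled. Spike-in scaling and no scaling shift every gene by 1 constant, so all 10 genes moved with this median. Nqo1, Gclc, Gclm, Gsr and Txnrd1 lay near it, and the other 5 genes lay above it in each.

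**Figure D3:**
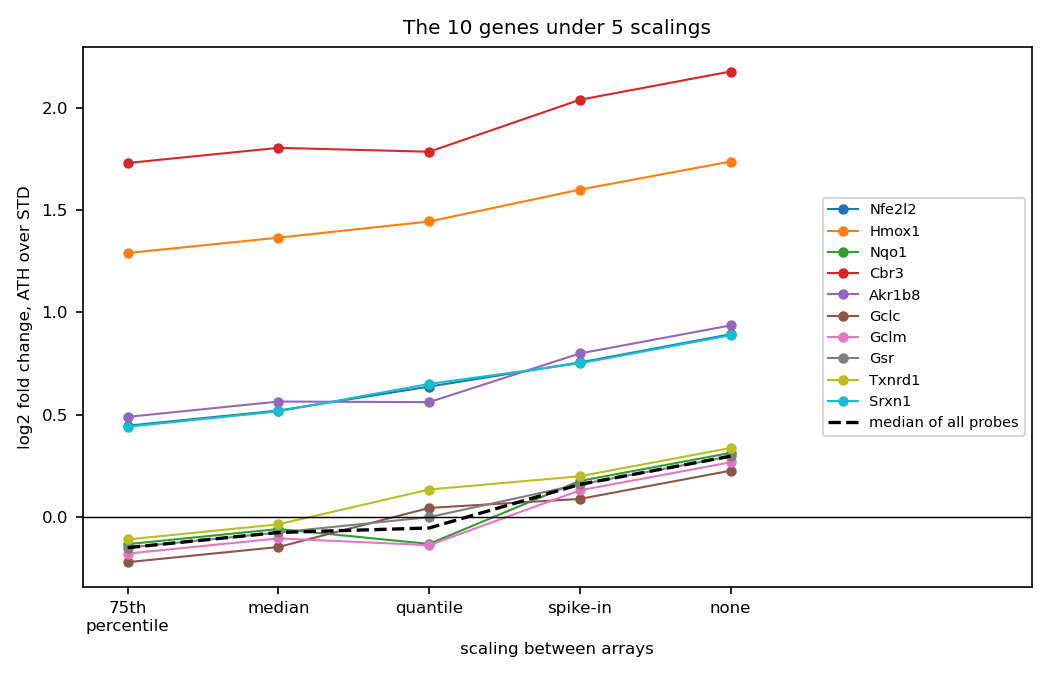
Log2 fold change of ATH over STD for the 10 genes under 5 ways of scaling arrays to each other, 1 line per gene, with the median of all probes dashed. The 5 lower genes run near the dashed line, with Gclc and Txnrd1 already above 0 under quantile normalization and all 5 above 0 with spike-in scaling and none, and Cbr3, Hmox1, Akr1b8, Nfe2l2 and Srxn1 lie above it throughout.

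Markers of several cell types were also higher on the atherogenic diet. Of 15 macrophage markers, all of which passed the filter, 8 rose, against 4.05% of all genes called higher. For 1 of these 8 the probe was detected on 0 STD and 4 ATH arrays, so it passed the filter through the ATH arrays alone. Among probes detected on all 8 arrays, 8 of 14 markers were called higher, where 1037 of 27153 probes were. Of the 15, 14 had a mean higher on the atherogenic diet, with a median difference of 1.69. With the replicate block 5 of them were called and with the methods' test 0. Without ATH replicate 2 in limma 11 were called, where 14.8% of all genes were. Leaving out any 1 of the other arrays gave 3 to 5 calls. Their summed linear level, in units of the array's 75th percentile, was 91.7 to 107 in the STD mice and 316, 179, 670 and 756 in ATH replicates 1 to 4. ATH replicate 2, which was lowest of the ATH mice for Hmox1, Cbr3, Nfe2l2 and Srxn1, was also lowest in this sum, whereas the median marker level was lowest in ATH replicate 1 (0.69 against 1.14 in replicate 2). Akr1b8 did not share this order, being lowest of the ATH mice in replicate 3. At their brightest probe all 8 stellate cell markers had a mean higher on the atherogenic diet and 1, Col3a1, was called. Dimmer Col3a1 probes gave 0.39 and -1.14 and were not called (limma, adjusted p = 0.464 and 0.128). The summed level of the 8 markers was 12.6 to 15.7 in STD and 18.6 to 39.6 in ATH mice. Of 6 cholangiocyte and 6 endothelial markers 1 each was called higher, with summed levels of 1.97 to 2.56 against 2.66 to 3.48 and of 7.06 to 8.89 against 7.73 to 11.6. Of 5 detected neutrophil markers none was called by limma (2 higher at an unadjusted p under 0.05, both called with the replicate block at an adjusted p of 0.0271 and 0.0301) and their summed level was 1.5 to 3.52 in STD and 3.09 to 14.8 in ATH mice. Ly6g and Elane did not enter the test, as 1 of them had no named probe and 1 had no probe that passed the filter. Of 12 hepatocyte markers, all detected, 12 had a mean lower on the atherogenic diet under the main scaling, with 1 called. Their median of -0.35 was 0.09 without scaling and 0.04 after quantile normalization. Their summed level was 4950 to 5190 in STD and 3330 to 4480 in ATH mice. The part of cell makeup in the differences of the 10 genes was not tested.

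**Figure D4:**
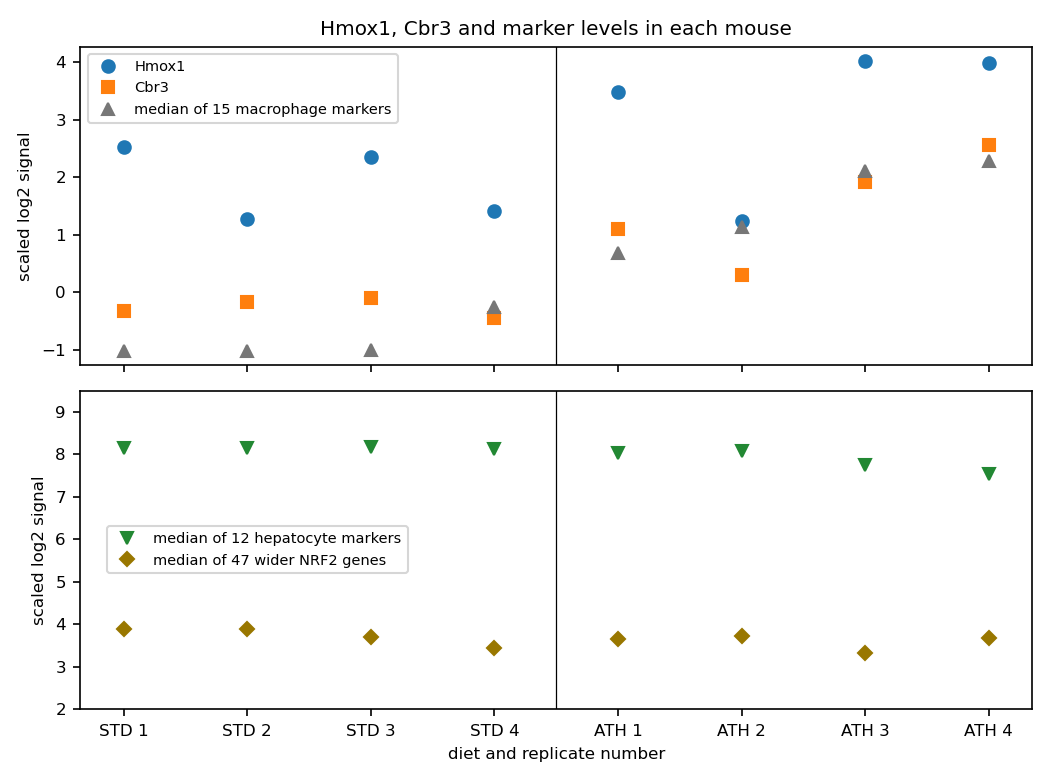
Scaled log2 signal in each of the 8 mice, with Hmox1, Cbr3 and the median of 15 macrophage markers above, and the medians of 12 hepatocyte markers and of 47 further NRF2 pathway genes below. Heights are compared between mice within a series of points, not between genes, and ATH replicate 2 has the lowest Hmox1 and Cbr3 of the ATH mice.

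Of 47 other genes of the pathway, all detected, 7 fell, 0 rose and 40 did not pass the test, against 5.3% of all genes called lower and 4.05% higher. At an unadjusted p under 0.05, 19 were lower and 2 higher, against 19.5% and 11.1% of all genes, and the methods' test called 0 of the 47. The split of the calls turned with the scaling, to 6 higher and 2 lower without scaling and 4 higher and 2 lower with spike-in scaling. Their median difference was -0.31, against -0.14 over all genes, and it was 0.14 unscaled and 0.01 on the spike-in scale, where the medians of all genes were 0.31 and 0.17. None of the 11 regulators and partners of NRF2 was called by limma or by the methods' test, with 3 lower and 0 higher at an unadjusted p under 0.05 in limma. Keap1, the inhibitor that binds NRF2, had a difference of -0.14 (limma, adjusted p = 0.497) and Bach1, the repressor, -0.37 (limma, adjusted p = 0.228), and both were above 0 without scaling. The probes of Slc7a11, another of the 47, disagreed. Its brightest probe gave 0.14 (limma, adjusted p = 0.704). A dimmer probe gave 2.67, above the difference of Cbr3, and was not called (limma, adjusted p = 0.0975).

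The 7 genes that fell were Me1, Abcc3, Gstm4, Htatip2, Ephx1, Idh1 and Ftl1, from 1.47-fold to 2.40-fold. Of these 7, picked by their call on the same arrays, 6 had diets that did not overlap. Of the 47 genes 19 had diets that did not overlap, against 22.2% of all genes tested. Me1 and Idh1 encode cytosolic enzymes that make NADPH. Me1 was 2.91, 3.39, 3.32 and 2.72 in the STD mice and 1.96, 2.32, 1.48 and 1.53 in the ATH mice, a difference of -1.26 (SE 0.23; limma, adjusted p = 0.0215). All 4 ATH mice lay below all STD mice, and its other probe gave -1.29. Idh1 had a difference of -0.68 (limma, adjusted p = 0.0427).

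Abcc3, which exports organic anions and conjugates across the basolateral membrane, was 5.67, 5.15, 5.19 and 4.80 in the STD mice and 4.22, 3.81, 4.10 and 4.04 in the ATH mice. The groups did not overlap, with a difference of -1.16 (SE 0.19; limma, adjusted p = 0.0167) and -1.03 at its other probe. Ephx1, the microsomal epoxide hydrolase, gave -0.73 (limma, adjusted p = 0.0343) and Htatip2 -0.74 (limma, adjusted p = 0.0329). Gstm4, a glutathione transferase of a family with near-identical members, gave -0.94 (limma, adjusted p = 0.0455), with 1 ATH mouse inside the STD range. Ftl1, the ferritin light chain that stores iron, gave -0.56 (limma, adjusted p = 0.0433).

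The windows of Me1 and Htatip2 hold a run that satisfies both motifs, shown because these genes fell while Srxn1, with its own match, had a higher mean.
Me1, chr9:86695901-86695930, minus strand, match from position -6: gatgccgccgTGACTCAGCgcttctcgcgg
Htatip2, chr7:49759453-49759482, plus strand, match from position -49: gtctgagctgTGACTCAGCacttccctagg
The windows of Prdx1 and Pir, also among the 47 genes, hold the same run as its reverse complement. Neither was called, with differences of -0.36 and -0.68 (limma, adjusted p = 0.17 and 0.0822). Of the 47 genes, 42 had a window and 15 of these held either motif, against 14.7% of all genes in the table, and the list was itself drawn from genes known as NRF2 targets and partners.

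All 7 differences stayed below 0 under each of 19 alternative settings, but Me1 and Abcc3 alone of the 7 were still called without scaling or with spike-in scaling. Without scaling Ftl1 was at -0.11, Idh1 at -0.23, Ephx1 and Htatip2 at -0.29 and Gstm4 at -0.50 (limma, adjusted p from 0.157 to 0.526), and with spike-in scaling their adjusted p was 0.101 to 0.262 in limma. With the replicate number as a block 4 of the 47 were called (Me1, Abcc3, Htatip2 and Gstm4), and leaving out 1 array gave 1, 1, 0 and 3 calls without STD replicates 1 to 4 and 5, 11, 1 and 2 without ATH replicates 1 to 4. G6pdx, which encodes the first enzyme of the pentose phosphate pathway and makes NADPH, stood apart from Me1 and Idh1 and is named after its values were seen. It was -0.33, -0.20, -0.30 and -0.19 in the STD mice and 1.01, -0.04, 1.45 and 1.83 in the ATH mice, a difference of 1.32 that did not pass the test (limma, adjusted p = 0.0518). All ATH mice lay above the STD mice, with ATH replicate 2 lowest, and without that mouse the difference was 1.69 and passed (limma, adjusted p = 0.00368).

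Of 15 antioxidant enzymes outside the pathway lists (superoxide dismutases, catalase, glutathione peroxidases and peroxiredoxins among them), none was called by limma at its brightest probe and 12 had a lower ATH than STD mean. Their median of -0.35 was 0.10 without scaling and -0.07 after quantile normalization. At an unadjusted p under 0.05, 8 of the 15 were lower and 1 higher in limma, against 19.5% and 11.1% of all genes, and the methods' test called none. Dimmer probes were called lower for Sod1 (-0.51 at each of 2 probes; limma, adjusted p = 0.0387 and 0.0486) and Txnrd2 (-0.70 at 1 probe; limma, adjusted p = 0.0377), named after their values were seen. Hmox2, the constitutive heme oxygenase, was among them with a difference of 0.13 (limma, adjusted p = 0.478). The phagocyte NADPH oxidase, which makes superoxide, had 6 of 6 subunits with a mean higher on the atherogenic diet. Of the 6, 3 were called higher, against 4.05% of all genes. Among these 3 were Cybb, the catalytic subunit, at 2.28 (limma, adjusted p = 0.0349) and Rac2 at 1.95 (limma, adjusted p = 0.0383). The other Cybb probe gave 1.795 and was not called (limma, adjusted p = 0.0858). The other Rac2 probe gave 2.02 and was called (limma, adjusted p = 0.034). With the replicate block none of the 6 was called (limma, adjusted p of 0.0531 for Cybb and 0.0598 for Rac2). The methods' test, and limma without the filter, also called none. Without ATH replicate 2, 5 of the 6 were called, where 14.8% of all genes were. Leaving out ATH replicate 1 left 1 called, and leaving out any 1 of the remaining arrays left 0. The median subunit level was -0.89 to -0.68 in the STD mice and 0.96, -0.27, 2.07 and 2.42 in ATH replicates 1 to 4, so ATH replicate 2 was again the lowest of its diet. Of 7 detected genes of the aryl hydrocarbon receptor battery, a set that also includes Nqo1 in the usual definition, Cyp1a2 fell by 0.70 on the log2 scale (limma, adjusted p = 0.0304) and 6 were not called, against 5.3% of all genes called lower. The Cyp1a2 call held in 9 of 19 alternative settings. It was lost in limma after quantile normalization (adjusted p = 0.101), with spike-in scaling (0.129) and without scaling (0.207), and with the methods' test (0.0977).

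**Figure D5:**
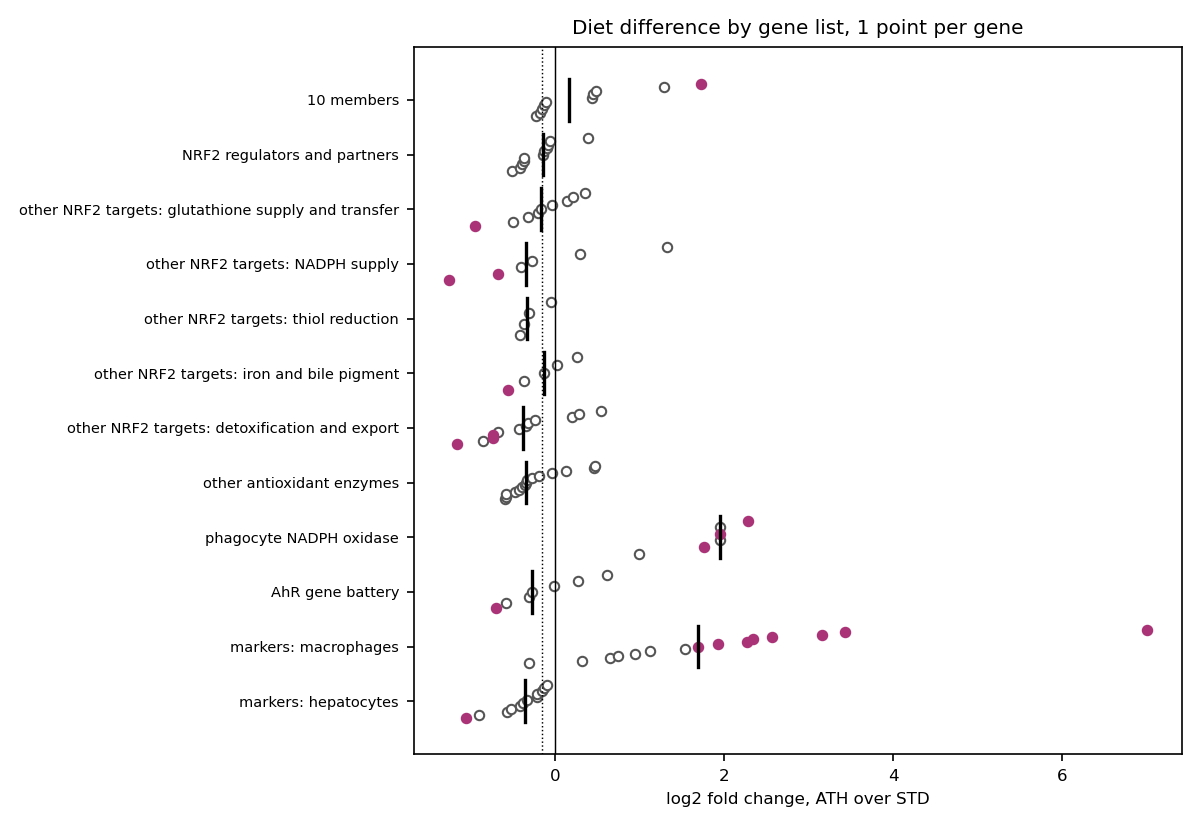
Log2 fold change of ATH over STD for each gene, in rows by list, with filled points called at an adjusted p under 0.05, open points not called, a vertical bar at each list's median and a dotted line at the median of all probes. Of the 10 genes only Cbr3 lies to the right of all other NRF2 targets, of which G6pdx is rightmost. The called genes among those targets all lie left of 0, and the NADPH oxidase and macrophage lists lie furthest right.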

How the data were processed

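Liver RNA of 8 mice was hybridized to Agilent arrays, and the authors scanned them and ran Agilent Feature Extraction (version 9.5 per the submitters' processing notes), so the deposited processed signal is a background-subtracted, detrended intensity. A second deposited table holds 31642 rows of log2 values from the authors, and 100% of detected probes matched the log2 intensity within 0.001 once an offset for each array and each probe was removed. Its scaling and baseline are not given in the sources used here, and it served as an alternative.

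Spots of a probe were averaged without flagged outliers, and the log2 intensity minus the 75th percentile of the array was tested with limma 3.58.1 in R 4.3.3 (linear models with moderated variances, two-sided p, adjusted by Benjamini-Hochberg over 31056 probes). Python 3.11.15 with pandas and matplotlib served for promoters and plots. Of 41174 probes, 22951 were named by accession, 6659 by symbol and 3109 by synonym, and 8455 kept the file's name. The steps were tested on simulated data. Nothing in the labels ties animals to litters or cages, and p-values measure the spread between these mice.

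Replicate numbers are those of the sample titles, and the main fit did not use them. For numbers 1 to 4 the residuals of the STD and ATH array correlated with r of 0.1001, 0.2296, 0.1815 and 0.1766, all above 0.1. Among pairs of unlike number the highest r was 0.1755, for STD replicate 2 with ATH replicate 1. The number served as a block in an alternative fit. A fit with this block is given beside the counts and named genes whose call it changed.

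The members and the gene lists were chosen with earlier results of these data known. All probes of the 10 genes are given. Of the 47 wider NRF2 genes, Keap1, Bach1 and up to 12 genes with the largest difference among those called at 5% are named, and of the antioxidant enzyme, NADPH oxidase and aryl hydrocarbon receptor lists the 3 largest among those called, except 1 gene that is not reported here. Marker lists are given by counts. Cbr1, Hmox2, G6pdx, Sod1, Txnrd2, Col3a1, Slc7a11, Prdx1 and Pir were named after their values were seen. The number of arrays limits the precision.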

Additional observations from a re-analysis of the deposited data

Results flagged for a closer look

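In the ATH group the level of Nfe2l2 at its brightest probe was 3.563 in replicate 2, with the nearest of the other ATH mice at 3.939, a gap larger than Dixon's 95% critical value allows for 4 samples. Chance gives such a gap in about 1 in 20 groups, and 34 groups (17 probes in each diet) were checked, with 1 found. The probe's difference was 0.45 with all arrays and 0.55 without that mouse (limma, adjusted p = 0.0505).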

How the results depend on the processing

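Cbr3, Hmox1, Akr1b8, Nfe2l2 and Srxn1 kept their sign under all 20 alternatives. The others reversed with scaling: without scaling to 0.31 for Nqo1, 0.23 for Gclc, 0.27 for Gclm, 0.30 for Gsr and 0.34 for Txnrd1, with spike-in scaling to 0.176, 0.088, 0.13, 0.16 and 0.20 in that order, and with quantile normalization to 0.044 for Gclc and 0.134 for Txnrd1. Without scaling every gene shifts up by the same 0.447, the mean diet difference of the 75th percentile. With spike-in scaling every gene shifts by another constant. Why the 75th percentile differed between diets was not tested. Member genes called, 1 in the main setting, were 4 with normexp, 4 without scaling, 2 with median scaling, 3 with spike-in scaling, and 0 without the filter, with the methods' test, at 1% and with the replicate block. With quantile normalization the 1 gene called was Akr1b8, not Cbr3. Member probes called were 5, 6, 2, 3, 0, 0, 0 and 0 under those 8 settings in the same order. Both ranged from 0 to 3 when 1 array was left out. The wider NRF2 genes called, 7 in the main setting, were 16 with normexp (1 higher, 15 lower), 8 without scaling (6 higher, 2 lower), 6 with spike-in scaling (4 higher, 2 lower), 4 with quantile normalization, 3 with median scaling, 2 without the filter, 0 with the methods' test, 0 at 1% and 4 with the replicate block, and 0 to 11 when 1 array was left out. All probes called, 2483 in the main setting (949 higher, 1534 lower), were 6394 with normexp, 7364 without scaling (6990 higher, 374 lower), 1086 without the filter, 22 with the methods' test, 164 at 1% and 1322 with the replicate block, and 394 to 3979 when 1 array was left out. The split was 2468 higher and 397 lower with spike-in scaling, 1043 and 879 with quantile normalization and 1028 and 842 with median scaling. At an unadjusted p under 0.05, 8817 probes passed. The slide as a block could not be fitted, since each slide holds 1 diet. The block changed no other call among the members.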
